A study of Solanum lycopersicum with 6 samples.

Results

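The stretch of tomato chromosome 4 described here holds the coding genes numbered from Solyc04g078000 to Solyc04g081999, 395 gene models out of 40229 in the whole table. It was chosen by the level differences between wild type and knockout, since several genes of it had transcripts in only 1 of these genotypes. Those differences are therefore given as a description. They support nothing, and the calls of a fit over all genes are given once, as counts. The rest of chromosome 4 holds 2424 coding genes. RNA-seq was run on Micro-Tom fruit, from a dwarf cultivar, 25 days after anthesis, as 3 libraries of wild type (labelled WT) and 3 of a line labelled SlLBD40-KO. In that line SlLBD40, a LATERAL ORGAN BOUNDARIES domain transcription factor gene, is knocked out. The labels name neither the kind of edit nor the number of independent lines, and call the replicates biological without saying whether they were separate plants or pools.

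Tomato gene identifiers are numbered along each chromosome, so neighbouring numbers mark neighbouring genes. Neighbours in a plant genome often belong to 1 family that arose by tandem duplication, yet most neighbouring genes have unrelated roles and are controlled apart. A gene is listed at 0 when no transcript abundance was assigned to its model; this alone does not tell a silent gene from one whose reads were not assigned to it. Levels below are in TPM, each transcript's share of a library scaled to a fixed total, a unit that accounts for transcript length, so levels of different genes can be set side by side.

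The labels were checked against a few genes outside the segment. SlLBD40, taken here as Solyc02g085910, stood at 1.57, 5.35 and 1.90 TPM in wild-type libraries 1 to 3, against 0.77, 2.51 and 3.85 TPM in knockout libraries 1 to 3. Its groups overlapped, so its level does not check the genotype. All 7 fruit and ripening markers were read. RIN, a MADS-box regulator of ripening, had groups that did not overlap (1.53, 19.7 and 8.14 TPM for wild type, 27.3, 20.9 and 113 TPM for the knockout), and the groups of the other 6 overlapped. Of all genes that reached 1 TPM in 3 or more libraries, 24.4% had groups that did not overlap, so nothing is read from RIN alone. The summed level of 183 seed storage and late embryogenesis genes lay between 26676 and 45495 TPM for wild type, against 32207 to 65738 TPM for the knockout, highest in wild type 1 and knockout 1. The part of seed content and ripening stage in the results was not tested. No labelled sequencing lane holds both genotypes, and title prefixes differ too, so lane and prefix cannot be told apart from genotype.

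Of the 395 members, 48 were listed at 0 in all 6 libraries and 88 more stayed under the limit of 1 TPM in at least 3 libraries. That left 259 members tested, with a median of 16.6 TPM over the 6 libraries. Together the members took between 1.01% and 1.33% of a library's total, the highest share being that of knockout 1. Between 245 and 263 members reached 1 TPM in each library. Of those tested, 7 passed the limit through 1 genotype alone, which favours genes that differ, and 6 of them met the rule for differing given below.

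The most distinct members form 2 small groups near the ends of the segment. The first of them in gene order, Solyc04g078075, is described as a protein with an FBD domain and leucine-rich repeats, a combination found in plant F-box proteins, which pick targets for ubiquitin tagging. It stood at 28.7, 32.2 and 37.1 TPM in wild-type libraries 1 to 3, while each of the 3 knockout libraries listed it at 0. Its wild-type libraries lay close together, unlike those of the other on-off members. The gene directly before it, Solyc04g078070, described only as an unknown protein, was among the 5 most abundant members over the 6 libraries. It stood at 589 ± 128 TPM in wild-type libraries, against 840 ± 82.3 TPM in knockout libraries (SD, n = 3). Its groups did not overlap, as for 24.4% of all genes tested, and were 0.53 log2 units apart. The gene directly after Solyc04g078075, Solyc04g078080, was listed at 0 in all 6 libraries, as was the next, Solyc04g078085, which resembles a retrotransposon polyprotein.

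Solyc04g078450, an unknown protein 37 members further on, was the 1 on-off member with the opposite pattern. Wild-type libraries 1 to 3 listed it at 0, 0.40 and 0 TPM, against 23.4, 47.3 and 88.7 TPM in knockout libraries 1 to 3. Before it stand a pair of carbohydrate esterase genes, Solyc04g078430 and Solyc04g078440, neither of which exceeded 0.13 TPM in any library. After it stands Solyc04g078460, an isoaspartyl peptidase and asparaginase gene, an enzyme type that releases aspartate. Solyc04g078460 stood at 8.70, 10.4 and 18.4 TPM in wild-type libraries, against 15.5, 58.2 and 24.2 TPM in knockout libraries, and its groups overlapped.

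CyclinJ18 (Solyc04g078500) lies 5 members after Solyc04g078450. Cyclins are the regulatory partners of the kinases that drive the cell cycle. It stood at 11.6, 23.2 and 15.3 TPM in wild-type libraries, against 0, 0 and 0.50 TPM in knockout libraries. With the value of knockout 3 at the limit of 0.5 TPM, it fell just outside the rule for near-off genes, and it is counted apart below. Both direct neighbours were read in both genotypes with overlapping groups. Solyc04g078490, an F-box protein gene, stood at 22.1 ± 4.36 and 33.2 ± 10.5 TPM, and Solyc04g078510, for the endoplasmic reticulum retrieval protein RER1, at 88.2 ± 21.4 and 101 ± 22.1 TPM in wild type and knockout (SD, n = 3).

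A neighbouring pair closes the set. Solyc04g081710 and Solyc04g081720, both described as unknown proteins, follow cyclinJ18 after 315 other members, with no coding gene between the pair in the table. Solyc04g081710 stood at 19.7, 34.8 and 13.98 TPM in wild-type libraries, and every knockout library listed it at 0. Solyc04g081720 stood at 37.1, 75.4 and 19.1 TPM in wild-type libraries, against 0, 0.33 and 0 TPM in knockout libraries. The pair kept the same order of libraries within wild type, highest in wild type 2 and lowest in wild type 3, with Solyc04g081720 at 1.89, 2.16 and 1.37 times the level of its neighbour. Whether the pair are parts of 1 transcript cannot be read from these values. The gene before the pair, Solyc04g081700, was listed at 0 in all libraries but knockout 3, at 0.35 TPM. The gene after it, Solyc04g081730, a DNA ligase, which joins DNA ends, stood at 107 ± 42.1 TPM in wild-type libraries, against 109 ± 17.6 TPM in knockout libraries (SD, n = 3).

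**Figure D1:**
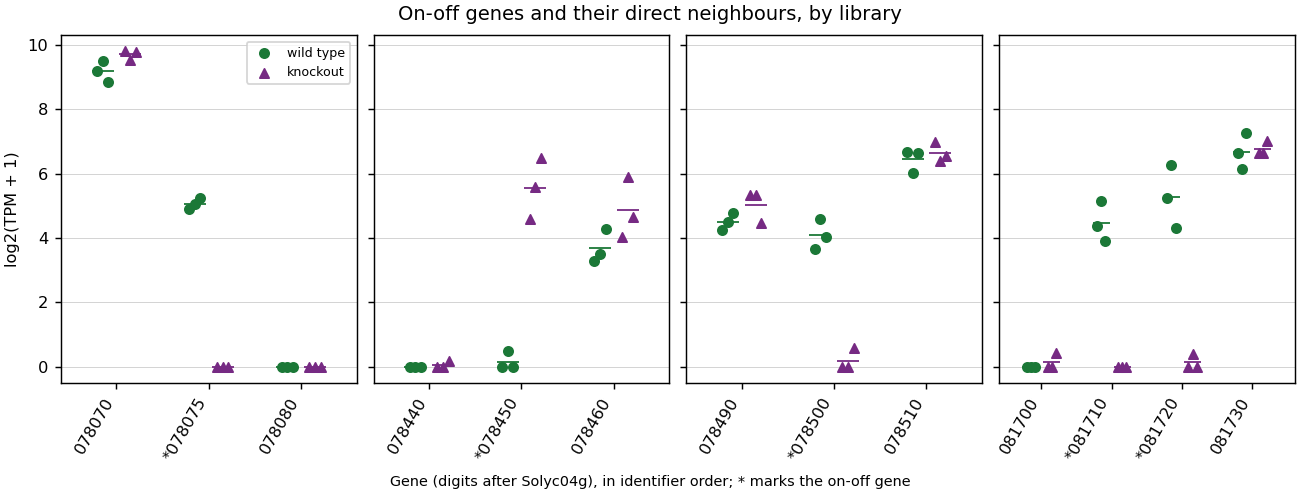
Levels in log2(TPM + 1) of the 5 on-off members, cyclinJ18 included (starred), and of the coding gene before and after each. There is 1 point per library and a bar at the mean of 3. At the starred genes 1 genotype lies at or near 0, while the neighbours outside the pair that reach 1 TPM do so in all 6 libraries, as Solyc04g081730 is at a mean of 107 TPM for wild type and 109 TPM for the knockout.

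By the strict rule (listed at 0 in all 3 libraries of 1 genotype and at 1 TPM or more in all 3 of the other), 2 of the 395 members were on in wild type only (background 0.0348% of all gene models) and 0 in the knockout only (0.0224%). A wider rule adds genes under 0.5 TPM in 1 genotype and at 2 TPM or more in the other. It took 3 members on in wild type (background 0.0597%) and 1 on in the knockout (0.0522%), 4 in all or 1.01%. CyclinJ18, outside this rule, would make 5. The background at a limit that takes it in was not counted, so nothing is read from the 5. The wider rule also took 5 genes, or 0.206%, from the rest of chromosome 4 and 0.112% of all gene models. Among all 34075 coding genes it took 40. Of the 5 genes in the rest of chromosome 4, 4 lie in the adjoining identifiers from Solyc04g074000 to Solyc04g077999. There they make up 1.32% of 303 coding genes. Each of the other 11 chromosomes held between 1 and 5 such coding genes. Since the segment was chosen for these genes, its share is a description of that choice.

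Weaker cases were also listed at 0 throughout 1 genotype. In all, 15 members were at 0 in every knockout library but above 0 in some wild-type library, and 3 of them were above 0 in all 3 wild-type libraries. The third, beside both strict cases, was Solyc04g079050, a UDP-glycosyltransferase gene of an enzyme family that attaches sugars to small molecules. It stood at 10.5, 0.77 and 0.72 TPM in wild type, so its level rests on wild type 1. In the other direction, 11 members were at 0 in every wild-type library, and 2 of these were above 0 in all 3 knockout libraries. These were cyclinB2_3 (Solyc04g081660), a mitotic cyclin, at 0.90, 0.29 and 2.04 TPM, and a dUTP nucleotidohydrolase gene (Solyc04g080250), of an enzyme that keeps uracil out of DNA, at 0.16, 0.07 and 1.32 TPM. At such levels a value of 0 is close to the values read in the other genotype. The share of such weaker cases over all gene models was not counted, so nothing particular to the segment is read from these counts.

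A gene was counted as differing when its groups of 3 libraries did not overlap and their mean log2(TPM + 1) differed by at least 1, a change of about 2-fold. In the segment 35 of 259 tested members differed, or 13.5%, against 124 of 1199, or 10.3%, in the rest of chromosome 4, and a background of 9.55% over all 18368 genes tested. On the other 11 chromosomes the share lay between 8.30% and 11.2%. Without the 4 on-off members it was 31 of 255. Counted over all members, tested or not, 36 of 395 met the rule, or 9.11%, against 138 of 2424, or 5.69%, in the rest of the chromosome. Over all gene models, noncoding ones included, it was 1884 of 40229, or 4.68%. For coding genes alone it was 1787 of 34075, and 9.74% of those tested. Groups that did not overlap by any margin were found for 74 members, or 28.6%, against 24.4% both in the rest of chromosome 4 and over all genes tested. The limma fit over all genes, which gives the standard errors below, called 17 (adjusted p under 0.05, Benjamini-Hochberg; 0.0926%), and 5 of them were the on-off members above, cyclinJ18 included. Because the segment was chosen on this same contrast, nothing can be read from these calls. That count became 0 without wild type 3 or knockout 1, 1 without wild type 2 or knockout 2 and 2 without wild type 1.

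Of the 35 differing members 25, or 71.4%, were lower in the knockout and 10 higher. Over all genes tested, 64.2% of the differing genes were lower. As shares of all genes tested, 6.13% were lower and 3.42% higher. With median-ratio scaling of the libraries, which moved the median log2 difference of all genes from −0.09 to 0.02, the split was 20 lower and 19 higher. Without wild type 3 it was 19 and 16, and without knockout 3 it was 24 and 22. In the rest of chromosome 4, 78 were lower and 46 higher, and 63 and 54 with that scaling. At least 4-fold differences, 2 log2 units, were found for 10 members, or 3.86%, against 1.501% in the rest of the chromosome and 1.92% over all genes. All the on-off members, cyclinJ18 included, are among these 10. The segment was chosen for such genes, so this share is in part a description of that choice.

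In gene order the share was uneven within the segment. Over the identifiers starting with Solyc04g078 it was 5 of 61 tested members, or 8.20%. It was 9 of 64, or 14.1%, for those starting with Solyc04g079, 9 of 63, or 14.3%, for Solyc04g080, and 12 of 71, or 16.9%, for Solyc04g081. The block with the first 3 on-off genes, cyclinJ18 included, was thus the one with the lowest share. After cyclinJ18, 26 tested members in a row included none that differed. The share did not fall off at the lower edge. In the adjoining range from Solyc04g074000 to Solyc04g077999 it was 41 of 196 tested genes, or 20.9%, with 21 lower and 20 higher in the knockout, and in its block starting with Solyc04g076 it reached 29.7%, the highest of the chromosome 4 blocks with at least 20 tested genes. In the block directly before the segment, starting with Solyc04g077, it was 7 of 59, or 11.9%. Beyond the upper edge, the block starting with Solyc04g082 had 7 of 79, or 8.86%. Of 9 other ranges of 4000 identifier numbers on chromosome 4 with at least 50 tested genes, 1 had a share as high as that of the segment, the adjoining range just named.

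**Figure D2:**
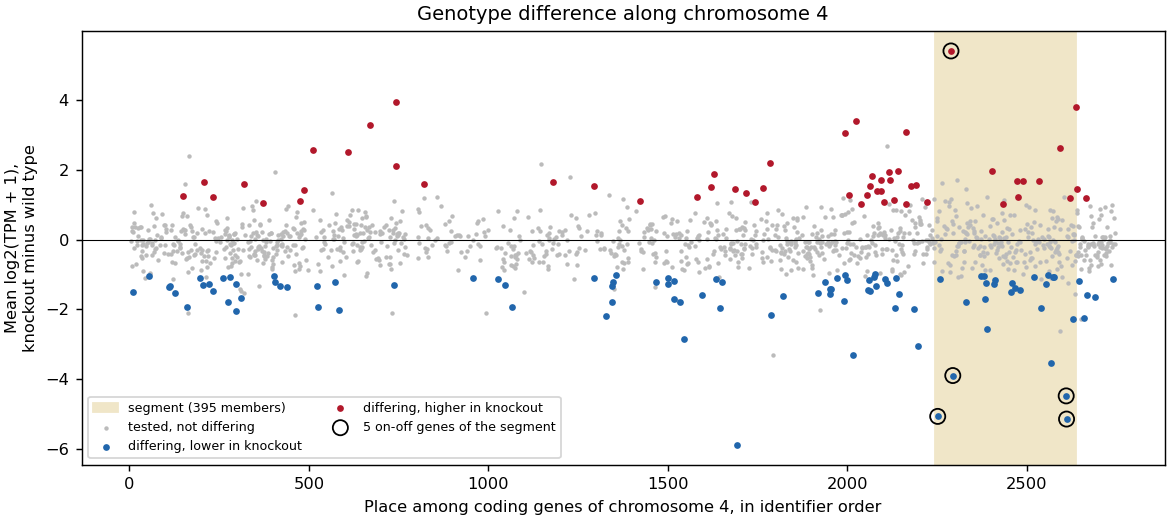
Difference of mean log2(TPM + 1), knockout minus wild type, for tested coding genes of chromosome 4 (vertical axis) against their place among 2747 coding genes in identifier order (horizontal axis). The shaded segment holds members between −5.14 and 5.40, and its 5 on-off genes, cyclinJ18 included, are ringed. Differing genes in blue and red are also dense in the adjoining range from Solyc04g074000 to Solyc04g077999.

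**Figure D3:**
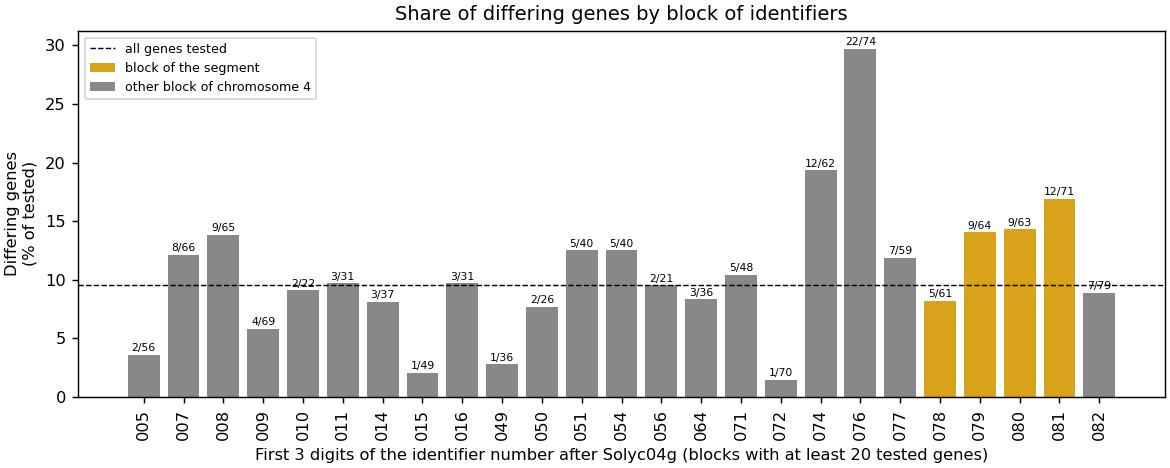
Share of tested genes that differed between genotypes in each block of 1000 identifier numbers on chromosome 4, as bars with differing over tested genes above them. The 4 blocks of the segment, in gold, run from 8.20% to 16.9%, and the block starting with Solyc04g076 stands highest at 29.7%.

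Differing members did not lie in long runs. Among tested members in order they formed 29 runs, 23 of them of a single gene and 6 of 2 genes, and both genes of each of these 6 pairs differed in the same direction. The pairs that were lower in the knockout include Solyc04g079430 with Solyc04g079440, allene oxide synthase with a tRNA-processing ribonuclease gene (Solyc04g079730 and Solyc04g079740), and the transcription factor E2FC gene with a tRNA methyltransferase subunit gene (Solyc04g081350 and Solyc04g081360). The 1 pair that was higher joins a leucine carboxyl methyltransferase gene and a plasma membrane fusion protein gene (Solyc04g080380 and Solyc04g080390), at 2.81 ± 0.554 and 12.04 ± 5.51 TPM for the first and 22.6 ± 4.36 and 56.1 ± 20.6 TPM for the second (wild type and knockout, SD, n = 3).

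At the lower edge no gene differed. The first 3 members, a QWRF motif gene (Solyc04g078000), a glycosyl hydrolase family 35 gene (Solyc04g078010) and an unknown protein (Solyc04g078020), stood at 2.22 ± 0.775 and 2.02 ± 0.394 TPM for the first, at no more than 0.48 TPM for the second and at 0 for the third. Just before them, an adenine phosphoribosyltransferase gene (Solyc04g077970), a C2H2 zinc finger gene (Solyc04g077980) and a LOB domain gene of the family of SlLBD40 (Solyc04g077990) had overlapping groups. The LOB domain gene lay at 17.4, 2.53 and 4.99 TPM in wild-type libraries, against 1.98, 5.14 and 4.58 TPM in knockout libraries. The last member, by contrast, was among the 10 with the largest differences. Solyc04g081990, of the major facilitator superfamily of membrane carriers, stood at 0.98, 0.81 and 1.03 TPM in wild-type libraries, against 77.5, 32.8 and 6.40 TPM in knockout libraries. Its knockout libraries spanned a wide range but lay above all wild-type libraries. The next gene outside, a phospholipase D gene (Solyc04g082000), had overlapping groups. The second one outside, pre-plastocyanin (Solyc04g082010), the precursor of an electron carrier of photosynthesis, differed, at 81.5 ± 42.7 TPM in wild-type libraries, against 222 ± 113 TPM in knockout libraries (SD, n = 3).

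In the class counts that follow, the background over all genes tested is 6.13% lower and 3.42% higher in the knockout, with a median difference of −0.09, and nothing particular to a class is read from them. An endoglucanase gene (Solyc04g081300), of enzymes that cut glucan chains of the wall, stood at 184, 56.6 and 64.5 TPM in wild-type libraries, against 4.20, 16.9 and 3.64 TPM in knockout libraries. All 3 knockout libraries were lower than the lowest wild-type one, and the difference of log2(TPM + 1) was −3.55 (SE 0.65). It was the 1 differing gene among 9 tested in the class of wall and glycosyl enzymes, which has 14 members. Outside that class, a thaumatin-like protein gene (Solyc04g081550), of a family of pathogenesis-related proteins, stood at 25.8, 7.15 and 33.8 TPM in wild-type libraries, against 223, 141 and 54.3 TPM in knockout libraries, a difference of 2.62 (SE 0.68). Its neighbour Solyc04g081560, also thaumatin-like, reached at most 0.12 TPM.

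A pre-pro-cysteine proteinase gene (Solyc04g080960), the most abundant member over the 6 libraries, stood at 284, 668 and 580 TPM in wild-type libraries, against 1790, 1204 and 1642 TPM in knockout libraries. Every knockout library lay above every wild-type one, and the mean was 3.03 times as high. Serpins, which trap proteases, stand as a run of 6 genes from Solyc04g079440 to Solyc04g079490. Solyc04g079440 stood at 73.2, 69.9 and 85.7 TPM in wild-type libraries, against 28.6, 39.5 and 28.2 TPM in knockout libraries, and Solyc04g079470 at 111, 31.6 and 51.1 TPM and at 7.62, 15.6 and 5.46 TPM. Both were lower in every knockout library. Solyc04g079480 in the same run stood at 2.04, 2.95 and 5.42 TPM in wild-type libraries, against 7.47, 17.7 and 5.05 TPM in knockout libraries, with overlapping groups, and the other 3 stayed at or under 1.29 TPM in every library. Reads of near-identical copies could be split between them by the authors' counting, so levels within this run are uncertain. A subtilisin-like protease gene (Solyc04g081810) was higher in the knockout, at 1.64 to 6.79 TPM against 0.13 to 1.32 TPM. It was the 1 differing gene of 18 tested in the class of ubiquitin and protein breakdown. The keywords of that class missed the cysteine proteinase gene and the RUB1 conjugating enzyme gene (Solyc04g079970), which also differed. The class count therefore leaves out some genes of this kind.

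In the class of chromatin, histone and cell cycle genes, 3 of 11 tested were lower and 1 higher, with a median difference of −0.35 over the 11. Besides cyclinJ18, a histone H3 gene (Solyc04g081145) was lower at 33.2, 42.6 and 44.8 TPM in the knockout against 93.1, 89.9 and 112 TPM in wild type. Histone genes have many near-identical copies, which makes the level of a single copy uncertain. An RCC1 family gene (Solyc04g081200) stood at 31.2 ± 13.9 and 14.02 ± 1.57 TPM (SD, n = 3). A gene described as a DNA polymerase epsilon catalytic subunit (Solyc04g080540) was higher, at 32.99, 18.3 and 42.6 TPM in the knockout against 6.68, 6.05 and 14.8 TPM in wild type. The other 4 cyclin genes of the segment stood at or under 4.26 TPM in every library. D-type cyclin-3 (Solyc04g078470), 3 members before cyclinJ18, stood at 0.54, 0 and 2.58 TPM in wild-type libraries, against 0, 0.13 and 0.04 TPM in knockout libraries.

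**Figure D4:**
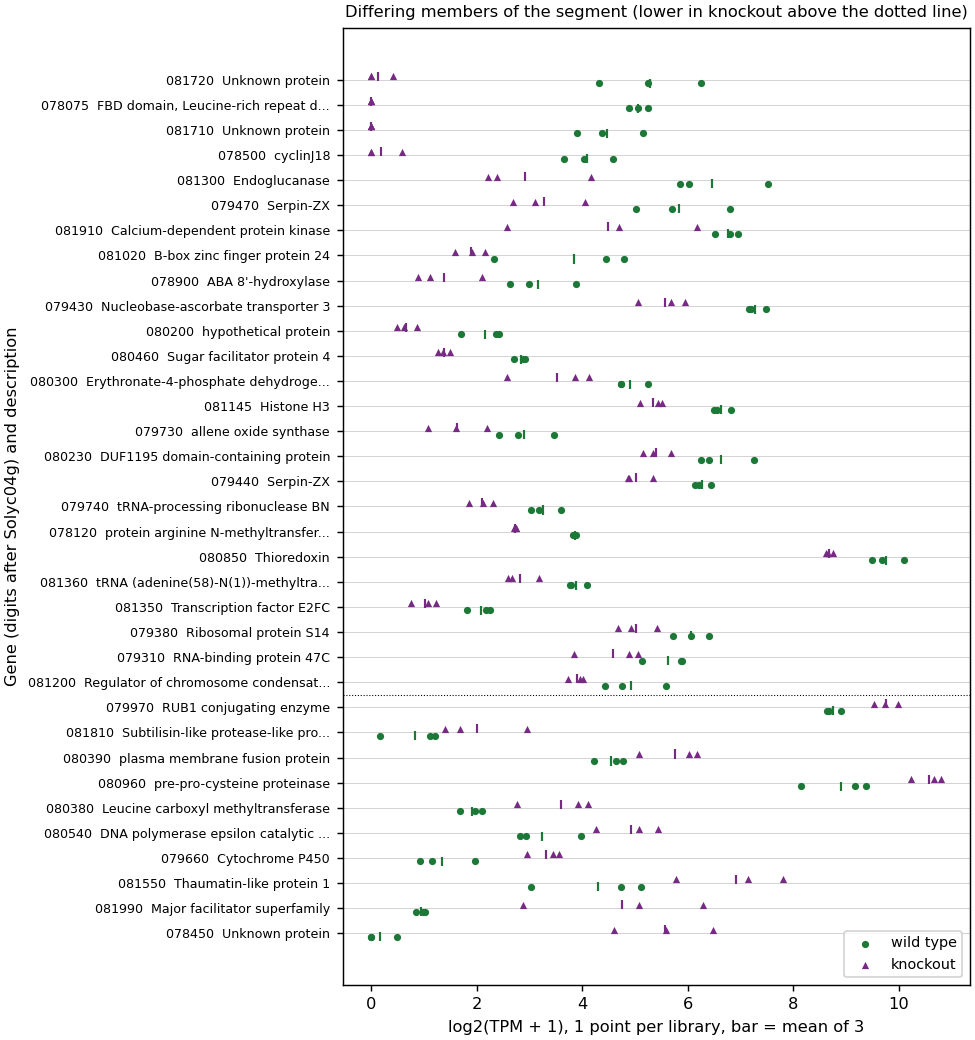
Levels in log2(TPM + 1) of the 35 differing members, with 1 point per library, a bar at the mean of 3 and genes sorted by the difference. The 25 members lower in the knockout are above the dotted line and the 10 higher ones below it. The 5 on-off genes, cyclinJ18 included, are those with 1 genotype at or near 0, from Solyc04g081720 at −5.14 to Solyc04g078450 at 5.40.

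The ABA 8'-hydroxylase gene (Solyc04g078900), whose enzyme breaks down abscisic acid, stood at 6.97, 5.20 and 13.9 TPM in wild-type libraries, against 0.86, 3.29 and 1.18 TPM in knockout libraries. Allene oxide synthase (Solyc04g079730), an enzyme of jasmonate synthesis, stood at 4.34, 5.90 and 10.1 TPM and at 2.05, 3.57 and 1.11 TPM. A calcium-dependent protein kinase gene (Solyc04g081910), which couples calcium to phosphorylation, stood at 90.7, 123 and 111 TPM and at 25.1, 71.1 and 4.99 TPM. Groups did not overlap for these 3 genes, but the knockout values of the kinase differed widely among themselves. It was the 1 differing member of 19 tested kinases and phosphatases, while 0 of 10 tested genes differed in the class of signalling and vesicle traffic.

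Of 15 tested transcription factor and DNA-binding genes, 2 differed and both were lower. A B-box zinc finger 24 gene (Solyc04g081020), of a family known for light responses in Arabidopsis, stood at 4.03, 20.9 and 26.6 TPM in wild-type libraries, against 2.03, 3.46 and 2.75 TPM in knockout libraries, so wild type 1 lay near the knockout. E2FC (Solyc04g081350), of the E2F family that controls cell cycle genes, stood at 3.26 ± 0.663 and 1.05 ± 0.343 TPM (SD, n = 3).

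A pair of other membrane carrier genes was lower in the knockout. The nucleobase-ascorbate transporter 3 gene (Solyc04g079430), named for the substrates of its family, stood at 146, 142 and 179 TPM in wild-type libraries, against 50.7, 61.2 and 32.4 TPM in knockout libraries, a difference of −1.71 (SE 0.28). It was the 1 differing gene of 5 tested in the class of transport and channels. The keywords of that class missed sugar facilitator protein 4 and the major facilitator gene Solyc04g081990, which also differed. Sugar facilitator protein 4 (Solyc04g080460) stood at 6.55, 6.38 and 5.50 TPM and at 1.42, 1.58 and 1.81 TPM. Libraries within each genotype lay close together for this gene.

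Among genes of translation and RNA processing, 4 of 19 tested were lower and 0 higher, with a median difference of −0.17 over the 19. These were a ribosomal protein S14 gene (Solyc04g079380) at 67.0 ± 15.99 and 32.1 ± 8.95 TPM, an RNA-binding protein 47C gene (Solyc04g079310) at 49.9 ± 13.8 and 24.7 ± 9.99 TPM, and both tRNA enzyme genes named above. Among metabolic enzymes, 3 of 42 tested were lower and 2 higher. A cytochrome P450 gene (Solyc04g079660) was higher, at 10.8, 6.72 and 9.91 TPM in the knockout against 1.23, 0.90 and 2.93 TPM in wild type. Erythronate-4-phosphate dehydrogenase (Solyc04g080300) was lower, at 29.4 ± 6.42 and 11.7 ± 6.03 TPM, and so was protein arginine N-methyltransferase 2 (Solyc04g078120), which methylates other proteins, at 13.5 ± 0.357 and 5.66 ± 0.119 TPM (wild type and knockout, SD, n = 3).

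Among the 5 most abundant members, 3 differed, the cysteine proteinase gene and a further pair. A thioredoxin gene (Solyc04g080850), of a family that reduces disulfide bonds, stood at 718, 1103 and 821 TPM in wild-type libraries, against 429, 395 and 406 TPM in knockout libraries, a difference of −1.08 (SE 0.24). It was the 1 differing gene of 6 tested in the class of chaperones, which also takes in thioredoxins. The RUB1 conjugating enzyme gene (Solyc04g079970), which attaches a ubiquitin-like protein to cullins, stood at 411, 481 and 401 TPM and at 1011, 860 and 737 TPM. With a difference of 1.004 (SE 0.23) it lay just inside the limit of 1 log2 unit. Just outside it lay a 50S ribosomal protein L31 gene (Solyc04g080630) at 0.99 (SE 0.28) and a mortality factor 4-like gene (Solyc04g078400) at 0.97 (SE 0.22). A V-type proton ATPase subunit gene (Solyc04g081090), of the pump that acidifies the vacuole, had overlapping groups at 427 ± 82.5 and 361 ± 56.7 TPM (SD, n = 3).

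Of 77 tested members with another kind of description, 4 were lower and 5 higher. Of 7 tested F-box, FBD and leucine-rich repeat genes, Solyc04g078075 alone differed, while the F-box gene GID2 (Solyc04g078390), of gibberellin signalling in rice, lay at 64.7, 152 and 85.1 TPM in wild-type libraries, against 199, 364 and 107 TPM in knockout libraries, with overlapping groups. A disease resistance gene of the CC-NBS-LRR class (Solyc04g079420), counted with them for its repeats, stood at 59.96 ± 22.1 and 31.01 ± 3.01 TPM, and its groups did not overlap but were 0.86 log2 units apart. Of 21 tested members with no informative description, 4 were lower and 1 higher, and 3 of these 5 were on-off genes. A DUF1195 domain gene (Solyc04g080230) was lower, at 104 ± 42.6 and 41.7 ± 8.29 TPM (SD, n = 3).

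Several runs of neighbouring genes with the same description stood at 0 or at low levels in both genotypes. A run of 5 patatin genes from Solyc04g079210 to Solyc04g079260, storage lipid hydrolases best known from the potato tuber, had no member that passed the limit, and the highest mean level was 0.81 TPM. A run of 3 glyoxal oxidase genes from Solyc04g081110 to Solyc04g081130 was listed at 0 in every library. The same held for a pair of metal transporter genes (Solyc04g078230 and Solyc04g078240). Of 41 members with no informative description, 15 were listed at 0 throughout, the largest count of any class but not the largest share. In the class of transport and channels it was 4 of 10, and over all gene models 12517 of 40229.

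Libraries of 1 genotype differed among themselves. Among tested members the median absolute deviation of a library from the mean of its genotype was between 0.22 and 0.23 on the log2(TPM + 1) scale for 5 libraries and 0.33 for knockout 3. Knockout 3 had 24 members more than 1 log2 unit from its genotype mean, and the other libraries between 5 and 15. Among the 35 differing members, 19 had their highest wild-type value in wild type 3 and 16 their highest knockout value in knockout 2. The like values over all genes tested are not given, so nothing particular to the members is read from these.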

How the data were processed

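RNA-seq of 6 tomato fruit libraries was read from 1 deposited table, whose header names no unit. Each library sums to between 987932 and 994646, so the values as deposited by the authors were treated as TPM, scaled to 1000000 per library. TopHat2, HISAT2, StringTie and Cufflinks are named, per the submitters' processing notes, without roles or versions. Of build and annotation, the sources used here say nothing. Depth is unknown, since TPM does not retain it, and counting intervals were therefore left out. Columns carry a prefix and a number from 1 to 3 that is not tied to a sample title. Genotype was read from the prefix, which the columns share with the titles of the labelled samples.

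Members were taken by identifier without version; 72 chromosome 4 identifiers numbered apart have no place in the order. Of the 395 members 0 matched the reference gene table, so no coordinates or sequences are given. A gene was tested if 3 or more libraries reached 1 TPM. The test was limma (version 3.58.1, R version 4.3.3) with its trend option, on values of log2(TPM + 1) and over all such genes; standard errors are from this fit and n is 3 libraries per genotype. P-values measure the spread between libraries. Fold changes on this scale understate changes of low genes. With 3 libraries a side, an exact permutation test (two-sided) has 0.1 as its smallest p.

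Members and lists were chosen with earlier results of these data known. Named genes were the on-off members and their neighbours, up to 15 differing members per direction with at least 5 TPM in the higher genotype, the 5 most abundant, those at the edges and those called by limma; others were named after their values were seen. Classes follow keywords in the table's descriptions. Alternatives were median-ratio scaling, a pseudocount of 0.1, no filter, a filter of 5 TPM, other on-off and fold limits, limma's robust option and leaving out libraries. Figures used matplotlib 3.10.9.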

Additional observations from a re-analysis of the deposited data

How the results depend on the processing

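The count of differing members stayed within 1.5 times 35 under each scaling, pseudocount, filter and left-out library tried. It was 10 with a limit of 2 log2 units and 59 at an unadjusted limma p under 0.05 (1.92% and 17.5% of all genes tested), where the rest of chromosome 4 gave 18 and 217 in place of 124. The filter of 5 TPM gave 81 there. With an off limit of 0.5 TPM, 4 members in place of 2 were on in 1 genotype. Leaving out each library in turn, limma called between 0 and 5 members in place of 5. With 0 called without wild type 3 or knockout 1, 42 and 46 members had an unadjusted p under 0.05, against 12.7% and 11.2% of all genes. With no filter it called 1. Leaving out both libraries richest in seed transcripts, chosen after seeing the data, it called 0 members with 39 at an unadjusted p under 0.05, against 8.85% of all genes, and 50 members, or 19.3%, differed, against 11.7% of all genes. The cause was not tested. All 27 named members kept their sign, which non-overlapping groups fix in advance for most. Of 295 recomputed differences 288 moved by less than 1 SD, and the other 7 were all at a pseudocount of 0.1. Most of the 295 could not have moved that far. A filter leaves a difference unchanged, and leaving out 1 library cannot shift it by 1 SD. No paired analysis was possible because the sample titles share 1 number between genotypes and columns are not tied to titles. TPM without depth limits what can be said of genes near 0.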

Other observations

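The adjoining identifiers before the segment hold 4 genes with the same on-off pattern, which were named after their values were seen. An alcohol dehydrogenase-like gene (Solyc04g074530), of enzymes that interconvert aldehydes and alcohols, stood at 0.05, 0.14 and 0.22 TPM in wild-type libraries 1 to 3, against 12.2, 11.5 and 4.18 TPM in knockout libraries 1 to 3. An unknown protein (Solyc04g074770) stood at 17.5, 3.81 and 15.8 TPM in wild-type libraries, against 0, 0.23 and 0.28 TPM in knockout libraries. A serine carboxypeptidase gene (Solyc04g076130), of enzymes that trim proteins from the end, had 0 in each wild-type library, against 1.17, 3.77 and 1.35 TPM in knockout libraries. A DUF4378 domain gene (Solyc04g077535) stood at 2.61, 14.03 and 10.1 TPM in wild-type libraries, against 0, 0 and 0.05 TPM in knockout libraries. With the members, 8 of the 9 on-off coding genes of chromosome 4 by the wider rule fall between Solyc04g074000 and Solyc04g081999. The adjoining range and the segment hold 303 and 395 of the 2819 coding genes of the chromosome. The segment was chosen for its on-off genes and the adjoining range was not planned, so this count describes that choice.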
